A study of Mus musculus with 12 samples.

Results

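Apolipoproteins are the protein parts of the particles that carry lipids between tissues, and this account follows 10 genes of that family and its assembly machinery in mouse kidney cortex. The genes are Apoa1, Apoc3, Apoa4, Apoa5, Apob, Mttp, Apoe, Apoc1, Apom and Apoh, found by their symbols among the 37681 genes of the deposited count table, where each had a row. They were chosen on their read counts in the same TG+ and TG- mice, so their differences between those groups are given as a description and no p-value is printed for them. Where members are counted as called, the count only says where they fall in the fit over all genes. 4 of the 10, Apoa1, Apoc3, Apoa4 and Apoa5, lie side by side in a single locus, and the other 6 are unlinked to it.

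RNA was sequenced from a thin outer slice of kidney cortex of 6 untreated male C57BL/6 mice, which by the study's methods were 18 months old, with a library from each of the 2 kidneys of a mouse. The 3 TG+ mice (43-29, 43-49 and 43-75) carried the TRACK/gamma-HIF1alphaM3 transgene, which expresses a mutated, constitutively active HIF1α in the proximal tubules and serves as a model of clear cell renal cell carcinoma. The 3 TG- mice (43-26, 43-50 and 43-76) were wild-type littermates without it. The labels do not say which kidney was the left, nor whether the slices held visible lesions.

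Libraries held between 21888584 and 33704850 reads assigned to genes, and the kidneys of a mouse were summed to between 48052131 and 60506785 reads. Hif1a itself lay between 86.3 and 109 CPM (read counts scaled to the normalized library size) in the TG+ mice. In the TG- mice it lay between 103 and 107 CPM. Whether reads of the transgene were counted under Hif1a is not given in the sources used here. Car9, a known HIF1α target, lay between 122 and 166 CPM in TG+ and between 11.7 and 17.6 CPM in TG- mice. The summed level of 18 proximal tubule markers was between 36850 and 39030 CPM in TG+ and between 46650 and 50290 CPM in TG- mice. In such bulk samples fewer cells of a type and less RNA per cell cannot be told apart.

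Lipids leave the intestine and the liver in particles built on APOB, which are loaded by the transfer protein that Mttp encodes. APOA1, APOA4, APOE and the small APOC proteins sit on the surface of these particles and of high density lipoprotein, where they stabilize the particle, regulate the lipases that unload it or bind the receptors that take it up. The kidney is better known for taking filtered apolipoproteins back up from the urine through the receptors megalin and cubilin than for making them, although the proximal tubule is known to make APOM.

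In the GRCm38 annotation the locus spans 43340 bases of chromosome 9 from the start of Apoa1 to the end of Apoa5. Apoa1 (chr9:46228580-46230466, plus strand) is followed after 2466 bases by Apoc3 (chr9:46232933-46235636), which is read from the minus strand. Apoa4 (chr9:46240696-46243459, plus strand) starts 5059 bases further on, and Apoa5 (chr9:46268633-46271919, plus strand) a further 25173 bases away. All 4 are protein-coding genes. Of the unlinked genes, Apoe and Apoc1 are also neighbours, 3448 bases apart on the minus strand of chromosome 7, while Apob is on chromosome 12, Mttp on chromosome 3, Apom on chromosome 17 and Apoh on chromosome 11.

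The promoter windows of the locus genes are shown because these neighbours differed so much in level and in their difference between the groups, and those of Apom and Apoh because these were the members with lower values in TG+ mice. Each window is the sequence from 250 bases before to 50 bases after a RefSeq transcription start on GRCm38.p6, on the strand of the gene. RefSeq windows were given for 8 of the 10 members, and Apoc3 and Apoc1 had none. Capitals mark matches on either strand to 5 short motifs, namely ACGTG and GCGTG (forms of the core of the hypoxia response element that HIF1α binds), CAAAGTNCA (a site of the liver and kidney factor HNF4, with N for any base), GTTAAT (part of the site of HNF1) and TATAAA (the TATA box). Where ACGTG is matched on both strands the matches overlap as CACGTG.

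Apoa1 (chr9:46228380-46228679, plus strand): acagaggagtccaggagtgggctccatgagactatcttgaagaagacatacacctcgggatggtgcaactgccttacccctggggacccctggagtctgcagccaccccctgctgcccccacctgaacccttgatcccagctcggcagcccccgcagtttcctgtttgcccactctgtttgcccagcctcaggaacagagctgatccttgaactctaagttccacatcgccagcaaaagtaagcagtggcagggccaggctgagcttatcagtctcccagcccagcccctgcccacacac
Apoa4 (chr9:46240594-46240893, plus strand): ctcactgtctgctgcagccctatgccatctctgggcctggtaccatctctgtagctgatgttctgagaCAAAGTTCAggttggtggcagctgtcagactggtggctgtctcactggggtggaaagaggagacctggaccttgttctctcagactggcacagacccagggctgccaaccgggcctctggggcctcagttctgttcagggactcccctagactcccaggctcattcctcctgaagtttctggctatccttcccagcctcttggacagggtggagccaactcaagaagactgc
Apoa5 (chr9:46268358-46268657, plus strand, the first of 2 starts): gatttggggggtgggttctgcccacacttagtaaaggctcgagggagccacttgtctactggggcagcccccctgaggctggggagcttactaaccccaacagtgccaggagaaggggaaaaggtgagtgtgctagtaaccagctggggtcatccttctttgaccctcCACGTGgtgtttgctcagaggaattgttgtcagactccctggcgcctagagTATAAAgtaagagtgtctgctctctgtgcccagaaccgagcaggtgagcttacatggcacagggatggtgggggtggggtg
Apom (chr17:35131752-35132051, minus strand): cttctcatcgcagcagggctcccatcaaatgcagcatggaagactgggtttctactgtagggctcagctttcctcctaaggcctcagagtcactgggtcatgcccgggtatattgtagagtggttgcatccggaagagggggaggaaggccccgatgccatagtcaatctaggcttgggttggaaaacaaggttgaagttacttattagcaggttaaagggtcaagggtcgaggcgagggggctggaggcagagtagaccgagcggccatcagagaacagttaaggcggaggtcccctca
Apoh (chr11:108395047-108395346, plus strand): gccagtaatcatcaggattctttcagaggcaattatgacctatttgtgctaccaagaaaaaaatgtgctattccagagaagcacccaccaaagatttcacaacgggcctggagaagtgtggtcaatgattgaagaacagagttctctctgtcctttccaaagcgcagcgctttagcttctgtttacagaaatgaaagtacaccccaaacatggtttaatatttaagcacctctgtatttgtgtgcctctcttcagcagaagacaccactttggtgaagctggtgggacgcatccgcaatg

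The Apoa4 window held CAAAGTNCA from 182 bases before the start, a motif found in 1.41% of all 32851 promoter windows of this length. The windows of Apoa1, Apom and Apoh held none of the 5 motifs. Apoa5 held TATAAA, a motif found in 13.6% of all windows, and the overlapping pair of ACGTG matches, a motif found in 19.6%. Among the windows not shown, that of Mttp held GCGTG at 2 places (32.4% of all windows had it), that of Apob held TATAAA, and of the 3 windows of Apoe 1 held GTTAAT (7.10% of all windows), 1 held TATAAA and 1 held none of the motifs. These matches describe the letters of the windows and say nothing about binding.

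Of the 10 members, 9 had enough reads to enter the fit over 19399 genes (Apoa5 did not). Calls required an adjusted p below 0.01 in the quasi-likelihood test of edgeR together with a fold change above 2 or below 0.5. 3 of the 9 members, Apoa1, Apoc3 and Apoa4, were called higher in TG+ mice, as were 3.77% of all genes tested. 2 members, Apom and Apoh, were called lower, as were 0.211% of all genes tested, and the other 4 were called in neither direction. The values of TG+ and TG- mice did not overlap for those 5 called members and overlapped for the 4 others. Over all genes tested, 23.4% had every TG+ mouse above every TG- mouse and 20.8% had every TG+ mouse below. Because the members were picked from this contrast, nothing is read from these shares.

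**Figure D1:**
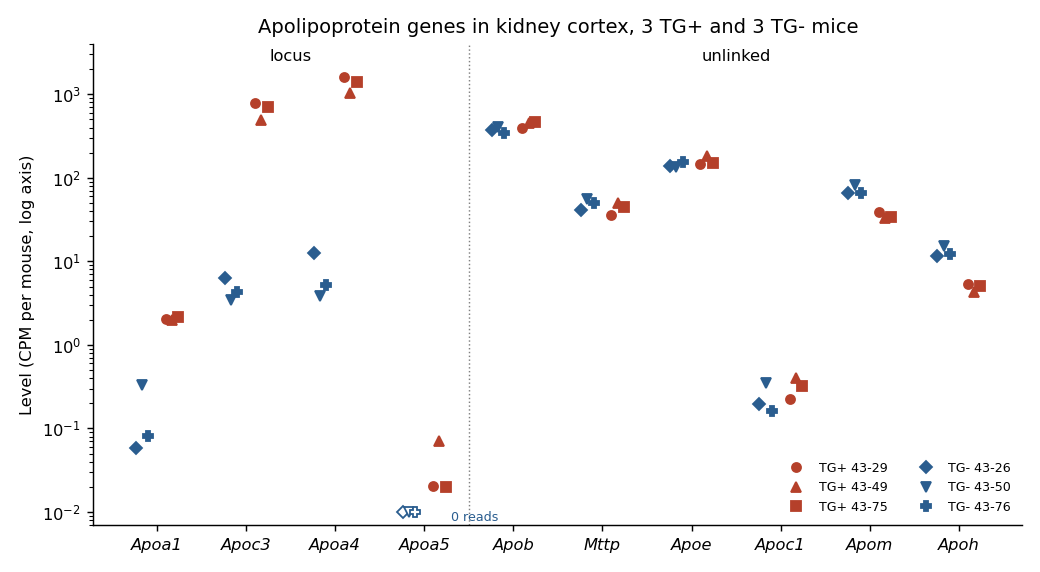
Level of each member per mouse (CPM on a log axis), with TG+ mice in red and TG- mice in blue, each mouse with its own symbol, and open symbols for 0 reads. Apoc3 and Apoa4 stood at 493 to 1626 CPM in TG+ mice and at 3.45 to 12.5 CPM in TG- mice, while Apob, Mttp, Apoe and Apoc1 overlapped between the groups.

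Apoa4, whose protein is made in large amounts by the intestine during fat absorption, showed the largest difference of the 9 members tested. Its level was 1626, 1031 and 1398 CPM in TG+ mice 43-29, 43-49 and 43-75, and 12.5, 3.82 and 5.26 CPM in TG- mice 43-26, 43-50 and 43-76. Every TG+ mouse thus lay far above every TG- mouse, with 43-49 the lowest of the TG+ mice and 43-26 the highest of the TG- mice. The log2 fold change was 7.56 ± 0.48 (SE), a 188-fold difference in CPM. Without 43-26 it was 8.22, the farthest from the reported value among 14 other settings, which otherwise gave 7.24 to 7.71.

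Apoc3, whose protein inhibits lipoprotein lipase and slows the clearance of triglyceride-rich particles, followed closely. Its level was 782, 493 and 707 CPM in the TG+ mice and 6.34, 3.45 and 4.28 CPM in the TG- mice, in the same order of mice. The groups did not overlap, and the mice kept the order they had for Apoa4 within each group. That gave a log2 fold change of 7.14 ± 0.29 (SE), or 141-fold, which ranged from 6.95 to 7.42 over 14 other settings.

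Apoa1 encodes the main protein of high density lipoprotein and was far less abundant. It had 101, 114 and 107 reads in the TG+ mice, which is 2.04, 2.01 and 2.13 CPM, and 3, 19 and 4 reads in the TG- mice, which is 0.0585, 0.333 and 0.0819 CPM. The TG+ mice lay close together, whereas among the TG- mice 43-50 stood above the other 2. The log2 fold change was 3.64 ± 0.44 (SE), or 12.4-fold, and rested on few reads in the TG- mice. Leaving out 43-50 gave 4.83. The mouse 43-50 thus had the highest TG- value of Apoa1 and the lowest TG- values of Apoc3 and Apoa4.

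Apoa5 encodes an activator of lipoprotein lipase that is found in the liver. It had 1, 4 and 1 reads in the TG+ mice and 0 reads in each of the 3 TG- mice. No library held more than 2 of its reads, so both groups lay under a floor of 3 reads per library and no fold change is given. Apoa5 thus gave at most a few reads at this depth, at the far end of a locus in which Apoa4 was among the most abundant transcripts of TG+ cortex.

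**Figure D2:**
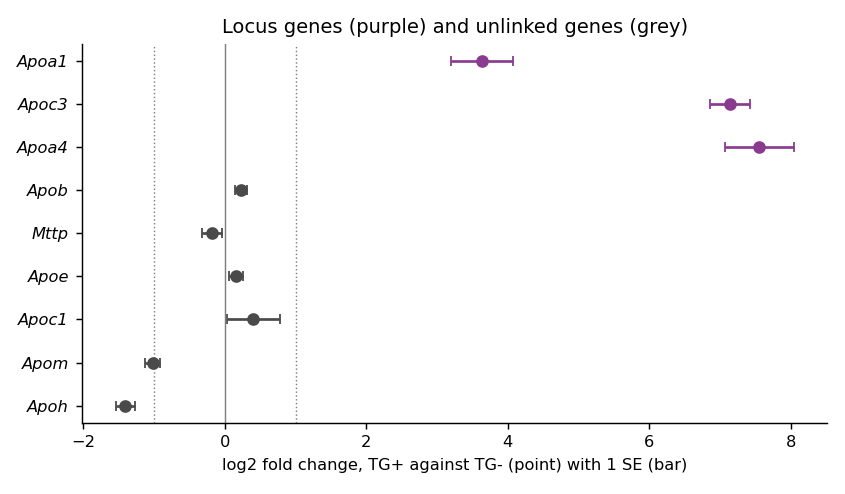
log2 fold change (horizontal axis, TG+ against TG-) of the 9 members that entered the fit, with bars of 1 SE and dotted lines at 2-fold in either direction. The 3 locus genes (purple) lay at 3.64 to 7.56, and the 6 unlinked genes (grey) at -1.41 to 0.40.

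Over the 3 locus genes in the fit the median log2 fold change was 7.14, whereas over the 6 unlinked genes it was -0.01, beside a median of 0.01 over all 19399 genes tested.

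The proportions of the locus genes were read in each library. Per length, in deposited RPKM, the ratio of Apoa4 to Apoc3 lay between 2.17 and 2.39 in the 6 TG+ libraries. In the TG- libraries it was 1.98 and 2.35 in the kidneys of 43-26 and 1.18 to 1.504 in the other 4 libraries, so the groups overlapped. The ratio of Apoc3 to Apoa1 was 196 to 391 in TG+ libraries and 5.56 to 59.8 in TG- libraries, where Apoa1 had between 1 and 11 reads. The deposited values had 1 read added to each count, which lowers that ratio most where Apoa1 had the fewest reads. The size of such a ratio depends on the gene lengths used. With CPM per kilobase of exon in the annotation, the ratio of Apoa4 to Apoc3 was 1.16, 1.17 and 1.11 in the TG+ mice and 1.11, 0.618 and 0.687 in the TG- mice. On either scale it was close across the TG+ mice, and 43-26 was nearest to them among the TG- mice.

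An antisense gene, Gm10680, is annotated over Apoa4, and whether the authors' counting used strand is not given in the sources used here, so reads of the pair cannot be told apart without it. Gm10680 had 40210, 29609 and 36210 reads in the TG+ mice and 293, 108 and 113 reads in the TG- mice. Its reads amounted to 0.496 to 0.519 of those of Apoa4 in the TG+ libraries and to 0.415 to 0.524 in the TG- libraries. Its order of mice was that of Apoa4 in TG+ and, with 43-50 the lowest, also in TG-. Mttp and Apoh also overlap other genes, Trmt10a and Prkca, which had 1784 and 8336 reads over the 12 libraries.

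The genes around the locus were set beside it, 10 protein-coding genes on each side. They reach 818302 bases from the locus on the Apoa1 side (Fxyd2) and 2319958 bases on the Apoa5 side (Nnmt). Beyond 4931429L15Rik on the Apoa5 side the next of the 10, Cadm1, lies 1258254 bases away. 19 of the 20 had enough reads to be tested, and 0 were called in either direction by edgeR's quasi-likelihood test and 0 by DESeq2. At an unadjusted p below 0.05, 4 were higher and 8 lower, against 21.9% and 17.2% of all genes tested. Their median log2 fold change was -0.06. Sik3, a kinase gene that ends 4386 bases before Apoa1, had 135 ± 14.4 CPM in TG+ and 141 ± 7.96 CPM in TG- mice (mean ± SD of 3 mice), a log2 fold change of -0.07 (edgeR adjusted p = 0.602). Zpr1, which encodes a zinc finger protein and starts 1145 bases after Apoa5, had 25.2 ± 1.33 and 24.5 ± 0.614 CPM, a log2 fold change of 0.04 (edgeR adjusted p = 0.679). Differences of the size seen at Apoc3 and Apoa4 were thus not measured in the nearest gene on either side.

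At an adjusted p below 0.05 and any fold change, a rule that called 15.4% of all genes tested higher and 10.9% lower, 3 flanking genes were higher and 4 lower. Tagln, a smooth muscle actin-binding protein, was the furthest from 0 of the 7, at a log2 fold change of 0.72 (edgeR adjusted p = 0.00837). Fxyd2, the gamma subunit of the sodium pump, had the highest CPM of the 20. It fell from 796 ± 53.6 to 634 ± 22.0 CPM, a log2 fold change of -0.33 (edgeR adjusted p = 0.00891).

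**Figure D3:**
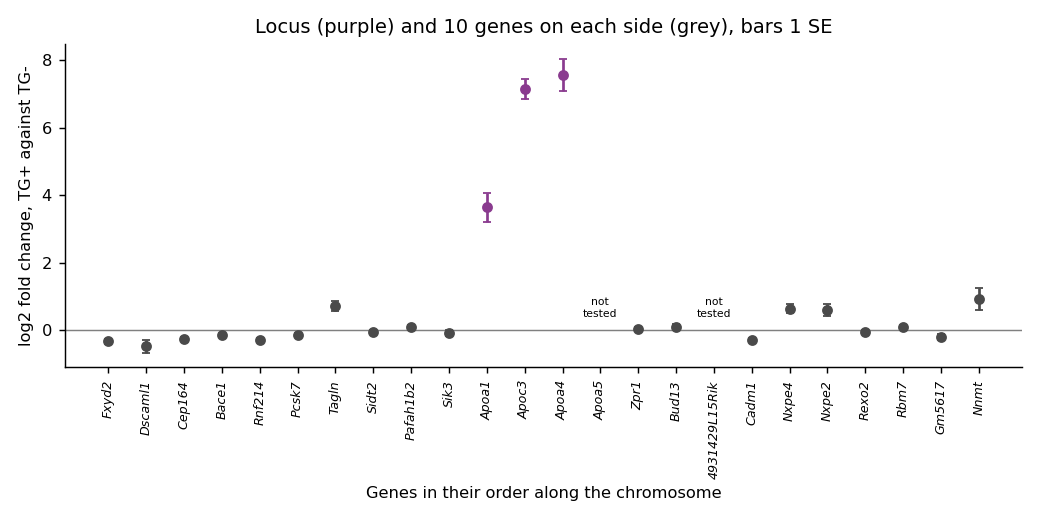
log2 fold change (vertical axis, TG+ against TG-, bars 1 SE) of the locus genes in purple and of 10 genes on each side in grey, in their order along the chromosome and not to scale in distance. The flanking genes lay between -0.47 and 0.94, and Apoa5 and 4931429L15Rik had too few reads to be tested.

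Among the unlinked genes, the machinery that builds APOB particles showed no such difference. Apob, the structural protein of the triglyceride-rich and low density particles, had 393, 452 and 469 CPM in the TG+ mice and 371, 407 and 345 CPM in the TG- mice. The groups overlapped, with 43-29 below the TG- mouse 43-50. Apob had a log2 fold change of 0.23 ± 0.09 (SE).

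Mttp encodes the transfer protein that lipidates APOB. It had 35.6, 50.4 and 44.5 CPM in the TG+ mice and 41.6, 55.8 and 50.4 CPM in the TG- mice. The groups overlapped, and the log2 fold change of Mttp was -0.18 ± 0.14 (SE).

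Apoe, a ligand of the receptors of the LDL family that is made by macrophages as well as by liver, had 146, 183 and 150 CPM in the TG+ mice and 138, 135 and 155 CPM in the TG- mice. The TG- mouse 43-76 lay above 2 of the TG+ mice, and only 43-49 stood above all TG- mice. The log2 fold change of Apoe was 0.16 ± 0.10 (SE), and 0.04 without 43-49. Macrophage markers had positive log2 fold changes in 12 of 12 genes, with a summed level of 208 to 234 CPM in TG+ and 120 to 165 CPM in TG- mice, and their part in the Apoe values was not tested.

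Apoc1, the neighbour of Apoe, encodes a small surface protein of lipoproteins. It had 11, 23 and 16 reads in the TG+ mice and 10, 20 and 8 reads in the TG- mice, which is 0.222, 0.406 and 0.319 CPM against 0.195, 0.350 and 0.164 CPM. The groups overlapped, and at so few reads the log2 fold change of 0.40 ± 0.37 (SE) leaves its direction undetermined.

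The other 2 unlinked genes had lower values in TG+ mice. Apom, which encodes a carrier of sphingosine 1-phosphate on high density lipoprotein, had 38.9, 33.0 and 33.7 CPM in the TG+ mice and 65.4, 82.3 and 66.6 CPM in the TG- mice. The groups did not overlap, and the highest TG+ value was well under the lowest TG- value. The log2 fold change of Apom was -1.02 ± 0.11 (SE), a fold of 0.492, so close to the limit of 0.5 that its call was lost with scaling by library size alone (-0.90), in the first kidneys alone (-0.99), without 43-49 (-0.98) and without 43-50 (-0.91). Its direction was the same in those settings.

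Apoh encodes beta-2-glycoprotein I, a plasma protein that binds phospholipids. It had 5.40, 4.36 and 5.02 CPM in the TG+ mice and 11.6, 15.4 and 12.1 CPM in the TG- mice. The groups did not overlap, and 43-50 was the highest TG- mouse for Apoh as it was for Apom. For Apoh the log2 fold change was -1.41 ± 0.14 (SE), and it lay between -1.49 and -1.27 over 14 other settings.

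The proximal tubule markers moved in the same direction as Apom and Apoh. Of 18, 16 had negative log2 fold changes with a median of -0.30, and 1, the organic anion transporter Slc22a6, was called lower (log2 fold change -1.09, edgeR adjusted p = 4.82e-05). The part of this in the Apom and Apoh values was not tested.

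The order of the members by level was taken per length, in the RPKM values (reads per kilobase of gene, scaled to the size of the library) of the deposited table. In TG- cortex the order was Apom (40.7 ± 5.25, mean ± SD of 3 mice), Apoe (16.7 ± 1.22), Apob (12.4 ± 1.03), Mttp (6.06 ± 0.882), Apoh (4.95 ± 0.759), Apoa4 (4.05 ± 2.63), Apoc3 (2.38 ± 0.761), Apoc1 (0.303 ± 0.105), Apoa1 (0.123 ± 0.0958) and Apoa5. The ranges over mice of Mttp, Apoh, Apoa4 and Apoc3 overlapped from each gene to the next, as did those of Apoc1 and Apoa1, so those places are not separated. In TG+ cortex the order was Apoa4 (734 ± 163), Apoc3 (325 ± 73.8), Apom (19.6 ± 1.76), Apoe (18.1 ± 2.32), Apob (14.1 ± 1.39), Mttp (5.24 ± 0.915), Apoh (1.84 ± 0.194), Apoa1 (1.26 ± 0.0479), Apoc1 (0.383 ± 0.101) and Apoa5. There only Apom and Apoe overlapped from 1 place to the next.

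Apoa4 and Apoc3 thus stood above the other 8 in TG+ cortex and below Apom, Apoe and Apob in TG- cortex. Over all 37681 genes ranked by mean RPKM, Apoa4 was at place 7693 in TG- and at place 31 in TG+ mice, and Apoc3 at places 10038 and 70. Apob was at places 3537 and 3138 and thus changed little in rank. The deposited RPKM had 1 read added to each count, which sets the level of Apoa5, and rests on the authors' gene lengths. With CPM divided by the summed exon length in the annotation instead, Apoe came before Apom in TG+ and Apoh before Mttp and Apoc3 before Apoa4 in TG-, while the other places were the same.

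**Figure D4:**
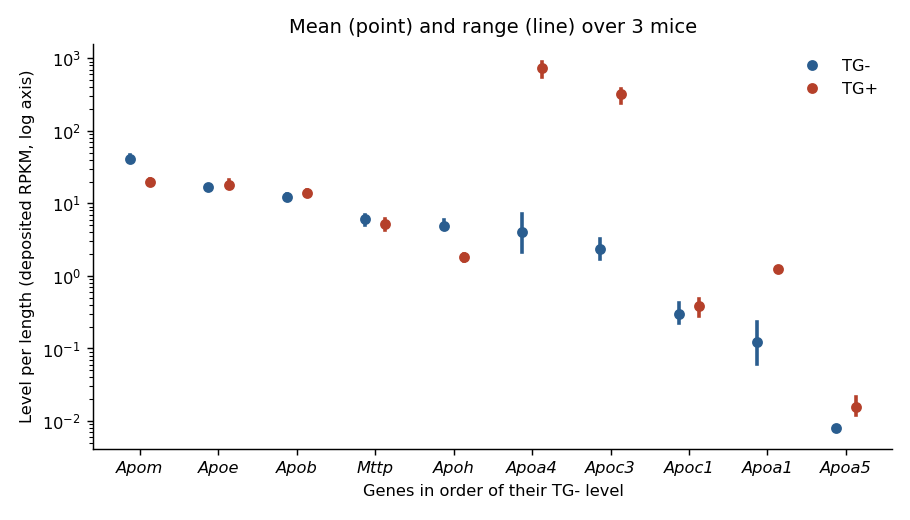
Level per length of the 10 members (deposited RPKM on a log axis), with the mean as a point and the range over 3 mice as a line, TG- in blue and TG+ in red, ordered by the TG- mean. Apoa4 and Apoc3 moved from the middle of the order in TG- mice (4.05 and 2.38) to its top in TG+ mice (734 and 325).

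The kidneys of a mouse gave a second measure that had no part in choosing the genes. A fit of kidney 2 against kidney 1 with each mouse as a block tested 18038 genes and called 3 of them (0.0166%) at an adjusted p below 0.05 by edgeR's quasi-likelihood test, and the 3, Hbb-bs, Hbb-bt and Alas2, are genes of red blood cells, named after their values were seen. Of the 8 members tested, 0 were called, also with DESeq2, and 1 had an unadjusted p below 0.05, as did 1000 of all genes. That gene was Apob, at a log2 difference of 0.12 ± 0.04 (SE), higher in kidney 2 in 6 of 6 mice (edgeR adjusted p = 0.884). Its differences were 0.05, 0.12 and 0.41 in the TG+ mice and 0.05, 0.06 and 0.02 in the TG- mice, so that 43-75 stood apart. Without a filter on low counts, Apob passed the limit in this contrast (edgeR adjusted p = 0.0204), where 105 genes did.

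For the abundant locus genes the kidneys of the TG+ mice were closer than those of some TG- mice. Apoc3 had 494 CPM in each kidney of 43-49, and 832 and 740 CPM in those of 43-29, which had the larger difference of the TG+ mice. Over the 6 mice the log2 difference between kidneys was -0.03 ± 0.04 (SE) for Apoc3 and -0.01 ± 0.06 (SE) for Apoa4, means over differences of both signs. In TG- mice the Apoa4 differences were 0.62 in 43-26, -0.08 in 43-50 and -0.47 in 43-76, and in TG+ mice they lay between -0.10 and 0.03. For Apoc3, 43-26 differed by 0.37. High values were thus shared by the kidneys of every TG+ mouse. A test of whether the kidney difference itself differed between TG+ and TG- mice called 0 of 18038 genes, against 490 at an unadjusted p below 0.05, none of them a member.

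Other genes of lipoprotein biology were taken from 7 lists of 94 genes, of which 72 were tested. At the same limits 2 rose (3.77% of all genes did) and 0 fell (0.211% did), by edgeR as by DESeq2. At an unadjusted p below 0.05, 23 were higher and 19 lower, against 21.9% and 17.2% of all genes tested. At an adjusted p below 0.05 and any fold change, 14 were higher and 10 lower, against 15.4% and 10.9% of all genes. The median log2 fold change of the 72 was -0.01, beside 0.01 for all genes tested.

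Of the other apolipoproteins, 5 of 13 were tested and 0 were called (3 at an unadjusted p below 0.05), with a median of -0.01. Clu, which encodes clusterin, had the highest CPM of them. Its level was 353 ± 36.2 CPM in TG+ and 291 ± 45.3 CPM in TG- mice (edgeR adjusted p = 0.123). Apoa2, the second protein of high density lipoprotein, had 2.01 ± 0.306 and 2.39 ± 0.350 CPM (edgeR adjusted p = 0.340), and was named after its values were seen. Apod, a carrier of small lipids that was also named after its values were seen, had 0.766 ± 0.184 and 0.323 ± 0.137 CPM, a log2 fold change of 1.22 ± 0.33 (edgeR adjusted p = 0.0304). Apoc4, Apof, Saa1 and Saa2 had at most 3 reads in any library. Of the apolipoprotein L family, 4 of 10 were tested and 0 were called (3 at an unadjusted p below 0.05), with a median of 0.95 and 4 of 4 above 0. Apol6, named after its values were seen, had a log2 fold change of 2.28 ± 0.68 (edgeR adjusted p = 0.0417). The highest CPM of this family was that of Apol10b, at 0.747 ± 0.0753 and 0.524 ± 0.0602 (edgeR adjusted p = 0.0926).

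Of the genes of lipoprotein assembly and secretion, 14 of 14 were tested, with 1 called higher and a median of -0.04. That gene, Soat2, esterifies cholesterol in liver and intestine and rose from 0.340 ± 0.0690 to 0.931 ± 0.0506 CPM, a log2 fold change of 1.44 ± 0.21 (edgeR adjusted p = 0.00280). Its call was lost in the second kidneys alone and without each of 43-26, 43-49, 43-75 and 43-76, where the adjusted p reached 0.0138. P4hb, the disulfide isomerase that partners with the Mttp product, had the highest CPM of the list. Its level was 796 ± 37.6 and 691 ± 35.1 CPM, a log2 fold change of 0.20 (edgeR adjusted p = 0.0457).

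Of the plasma lipoprotein enzymes and their regulators, 8 of 10 were tested and 0 were called, with a median of 0.21. At an unadjusted p below 0.05, 4 were higher and 1 lower. Lpl, lipoprotein lipase itself, had the highest CPM of the list. It was at 792 ± 64.6 CPM in TG+ and 1439 ± 274 CPM in TG- mice. Its log2 fold change of -0.86 (edgeR adjusted p = 0.00354) did not reach the limit on fold change. The product of Apoc3 inhibits this enzyme, and Apoc3 was higher in TG+ mice. Any link between these RNA levels was not tested.

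Of the receptors and uptake proteins, 14 of 14 were tested and 0 were called, with a median of 0.15. Lrp2, which encodes megalin, had the highest CPM of the list, not corrected for length. It had 1954 ± 48.4 CPM in TG+ and 2694 ± 182 CPM in TG- mice, a log2 fold change of -0.46 (edgeR adjusted p = 0.00213). At an unadjusted p below 0.05, 6 were higher and 4 lower, and at an adjusted p below 0.05 and any fold change 5 and 3. The largest differences of the list, named after their values were seen, were those of the fatty acid transporter Cd36, with 1092 ± 185 and 579 ± 46.1 CPM (log2 fold change 0.92, edgeR adjusted p = 0.00190), and of the receptor Lrp8 (log2 fold change 0.88, edgeR adjusted p = 0.0161). Scarb1, the receptor of high density lipoprotein, had a log2 fold change of 0.64 (edgeR adjusted p = 0.00215). Of the genes of cholesterol efflux and trafficking, 6 of 8 were tested and 0 were called (3 at an unadjusted p below 0.05), with a median of -0.15. The highest CPM was that of Npc2, at 117 ± 1.08 and 124 ± 5.41 (edgeR adjusted p = 0.295).

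Of the transcription factors known to act on apolipoprotein genes, 21 of 25 were tested, with 1 called higher and a median of -0.11. Pparg, a nuclear receptor of lipid storage, rose from 1.17 ± 0.132 to 6.19 ± 0.332 CPM, a log2 fold change of 2.40 ± 0.13 (edgeR adjusted p = 2.41e-05). Hnf4a, the nuclear receptor that activates the locus in liver, had the highest CPM of the list. Its level was 1135 ± 133 CPM in TG+ and 1428 ± 120 CPM in TG- mice, a log2 fold change of -0.33 (edgeR adjusted p = 0.0395). Foxa1, Foxa2 and Foxa3, forkhead factors of liver and gut, had at most 3 reads in any library of either group.

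**Figure D5:**
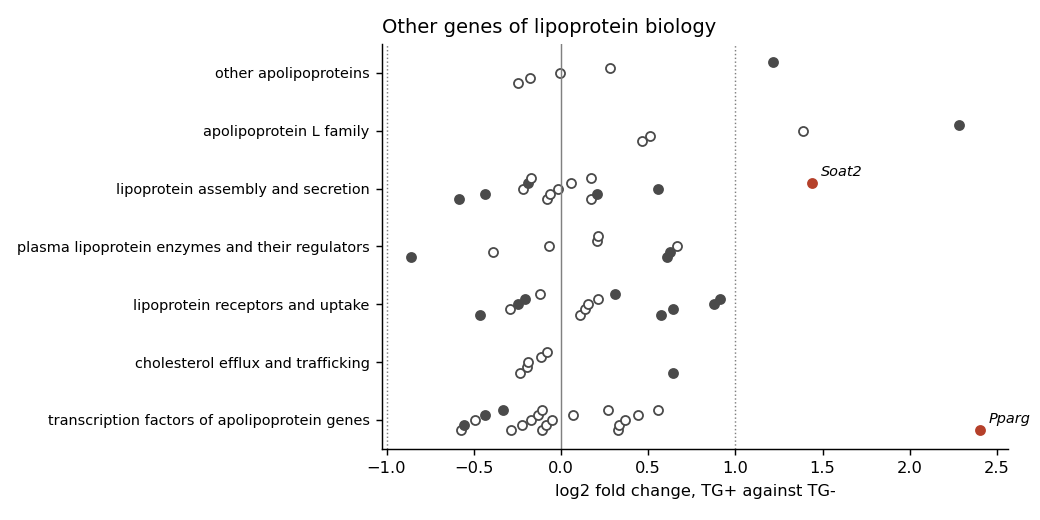
log2 fold change (horizontal axis, TG+ against TG-) of the 72 tested genes of 7 lists, 1 point a gene, with dotted lines at 2-fold. The 2 genes called at an adjusted p below 0.01 and over 2-fold are red and named (Soat2 1.44, Pparg 2.40), filled grey points had an adjusted p below 0.05 only, and open points did not.

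Liver and intestine are the tissues best known for the locus, so markers of their cells were read in the same libraries. Of 22 hepatocyte markers 14 were tested, with a median of -0.11, 2 called higher and 1 lower. Alb, albumin, had 11.1 ± 2.03 CPM in TG+ and 7.98 ± 2.46 CPM in TG- mice (edgeR adjusted p = 0.160). Fga had 21.9 and 28.9 CPM, Fgg 11.9 and 8.63 CPM, C8a 10.7 and 15.3 CPM, Serpina1a 4.25 and 4.89 CPM, Serpina1b 4.71 and 3.83 CPM and Itih1 3.38 and 3.303 CPM on average in TG+ and TG- mice, and none of these was called. Ahsg, Hpx, Cps1, Cyp3a11, Serpina3k, Itih4, Mup3 and Mup20 were too low to be tested, and Mup20 had 0 reads. The summed hepatocyte level was 291 to 337 CPM in TG+ against 107 to 172 CPM in TG- mice, a sum that includes F2 and Ttr. The 20 others, set apart after the values were seen, summed to 82.5, 73.6 and 75.6 CPM in TG+ mice. In TG- mice they summed to 86.7, 129 and 77.96 CPM, so the groups overlapped. The 2 left out were those called higher, while Hrg, called lower, was kept. That choice shaped the overlap, so nothing is read from it. The part of the hepatocyte markers in the locus values was not tested. The genes called were F2 (prothrombin, 142 against 0.572 CPM, log2 fold change 7.96) and Ttr (transthyretin, 88.2 against 32.9 CPM, 1.42), which rose, and Hrg (histidine-rich glycoprotein, -2.21), which fell, each named after its values were seen.

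Of 12 markers of intestinal epithelium 5 were tested, with a median of 1.39. At an adjusted p below 0.05 and any fold change, 4 of the 5 were higher. Muc2 (37.7 against 0.220 CPM, log2 fold change 7.43) and Fabp1 (1.39) were called higher. Vil1 had 222 and 232 CPM on average in TG+ and TG- mice, Slc5a1 97.8 and 67.1 CPM, and Krt20 6.47 and 0.522 CPM. Krt20 missed the limit narrowly (log2 fold change 3.61, edgeR adjusted p = 0.0101), and Slc5a1 passed on the adjusted p alone (log2 fold change 0.54, edgeR adjusted p = 0.00579). Fabp2, Sis, Alpi, Cdx1 and Cdx2 had 0 reads in all 6 mice, and Lct and Cdh17 had at most 3 reads in any library. The summed level of the 12 was 308 to 417 CPM in TG+ and 291 to 309 CPM in TG- mice. Most of it came from Vil1 and Slc5a1, which were abundant in TG- cortex as well. The part of the 12 markers in the locus values was not tested.

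Of the other lists, 7 of 7 adipocyte markers had positive log2 fold changes with 0 called and a summed level of 29.3 to 76.7 CPM against 21.3 to 31.4 CPM, with a median of 2.22. These markers differed by mouse, since without Fabp4 they summed to 32.1, 20.0 and 11.1 CPM in 43-49, 43-75 and 43-50 and to 0.182, 0.175 and 0.102 CPM in 43-29, 43-26 and 43-76. Apoa1, Apoc3 and Apoa4 were high in all 3 TG+ mice, and the part of the adipocyte markers in their values was not tested. Adrenal cortex markers summed to 3.92 to 5.10 CPM against 4.52 to 5.12 CPM, with Cyp11b1 and Cyp21a1 at 0 reads and 0 genes called. Markers of other nephron segments had a median of 0.10 with 0 of 12 called. The part of the adipocyte markers in the results was not tested.

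The genes whose pattern over the 6 mice was most like that of a member were sought among 16172 genes with a mean of at least 1 CPM, by the root mean square difference of their log2 CPM after the TG- mean was subtracted. For Apoa1 they were Crybg2 (0.311), Cox4i2 (0.441), 9030619P08Rik (0.467), Cybrd1 (0.547) and Aox1 (0.557), at log2 fold changes of 3.03 to 4.06. For Apob, the nearest were Papss1 (0.0367), Abhd18 (0.0488), Serpinb6a (0.0543) and Edn3 (0.0547), and a gene without a symbol. For Apoc3, chosen after the values were seen, they were Grin1 (0.129), Aire (0.191), Muc2 (0.210), Mgarp (0.288) and A2m (0.329), which lay between 0.117 and 0.517 CPM in TG- mice on average and between 23.2 and 62.6 CPM in TG+ mice. Apoc3 itself had 4.69 ± 1.49 CPM in TG- and 660 ± 150 CPM in TG+ mice. These values are CPM without a correction for length, so they set no order of levels between genes. The measure of likeness leaves out the TG- level.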

How the data were processed

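Kidney cortex RNA of 3 TG+ and 3 TG- mice was sequenced as 51-bp single-end reads, 2 kidneys per mouse. The authors deposited read counts per gene without normalization for 12 libraries, and RPKM values that they scaled after adding 1 to each count. The aligner and counting settings, annotation and use of strand are not given in the sources used here beyond the Tuxedo tools, and the submitters' processing notes name the build mm9. Deposited columns of the authors' own comparison (averages, fold changes, p and q-values) and of log2 RPKM were not used.

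Counts were summed per mouse, filtered with filterByExpr, normalized by TMM and tested across 19399 genes by quasi-likelihood in edgeR 4.0.16, run with R 4.3.3 and limma 3.58.1, and adjusted by the Benjamini-Hochberg method. The fit was tested on simulated data. For TG+ against TG- the p-values measure the spread between mice. Kidney 2 was set against kidney 1 with the mouse as a block, so those p-values measure the spread within mice. The members and lists were chosen with earlier results of these data known. Named beside the members were list genes past the limits (up to 4 a list) and the gene of each list with the highest CPM. The 5 genes most like Apoa1 and Apob were also named. The nearest flanking genes, Tagln and the marker genes were named after their values were seen. An item of the lists is not reported here. Mice were taken as unpaired. Positions came from GENCODE M21 (GRCm38), matched by identifier for 32642 of 37681 genes, and promoter windows from RefSeq. Alternatives were DESeq2 1.42.0, other scalings, no filter, single kidneys, a block and leaving out each mouse. Tables and plots used Python 3.11.15 with pandas 2.3.3 and matplotlib 3.10.9.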

Additional observations from a re-analysis of the deposited data

How the results depend on the processing

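Of the main comparisons, 138 of 166 alternative values stayed within 1.5 times the reported count or within the spread between mice. The median of the locus was 5.39 with DESeq2 and 5.61 without a filter, where Apoa5 also enters. That of the unlinked genes was -0.17 with each kidney as its own library and -0.23 in the first kidneys alone, where Apoc1 had too few reads. Over fits without 1 mouse these medians ran from 6.95 to 7.42 and from -0.13 to 0.07. Members called lower numbered 1 with library size alone, 1 in the first kidneys and 1 to 2 without 1 mouse. Scaling by library size alone moved the median of all genes from 0.01 to 0.13 and left 22 genes lower instead of 41, the cause of which was not tested further.

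Without 1 mouse, 469 to 633 genes were higher (469 without 43-76), 1 to 3 pathway genes were higher (1 without 43-26, 43-75 or 43-76) and 0 to 1 lower (1 without 43-26). At an adjusted p below 0.05 and any fold change, 2982 genes were higher and 2105 lower, among them 14 and 10 pathway genes and 3 and 4 flanking genes. Between kidneys, 105 genes and 1 member were called without a filter, 0 genes with no replicate block for the mouse, and 0 to 10 genes without 1 mouse (10 without 43-29, and 0 without 43-49, 43-50 or 43-75). For Apoa1, leaving out 43-50 gave 4.83. By reads per kilobase of exon, 6 of 10 members kept their place in the TG- order.

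Pairs of mouse numbers (43-29 with 43-26, 43-49 with 43-50, 43-75 with 43-76) correlated at 0.337, 0.296 and -0.0236 in their deviations from the group means. The name of the deposited table lists these numbers as pairs, but what the mice of a pair share is not stated and not every correlation was over 0.1, so the values reported are from fits without a block. A replicate block of these pairs gave 779 genes higher and 46 lower, with medians of 7.15 for the locus and -0.01 for the unlinked genes, and changed no call of a member. Depth limits Apoa5, Apoc1 and the TG- values of Apoa1, and with 3 mice per group outliers within groups were not tested.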
